A study of Cynoglossus semilaevis with 30 samples.

Results

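The expression profile of the pituitary rests on 6 of the 30 libraries of the series, 3 of large females and 3 of small females. They were taken by their tissue label and set against the 24 libraries of the other 4 tissues, which are brain, liver, gonad and muscle with 6 libraries each. All animals were females of the flatfish Cynoglossus semilaevis, the Chinese tongue sole, aged 1.7 years, with 6 fish in the large and 6 in the small size class. Each library held the pooled RNA of 2 fish, which gave each tissue and size class 3 libraries. The labels used here name no treatment, strain or line that would set the groups apart beyond tissue and size class. Both size classes were analysed together, with size class as a term of the fit. The question was which genes stood highest in the pituitary against each other tissue in turn, and how far that depended on large pituitary replicate 2, a library that stood apart from the other 5.

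The pituitary of bony fishes is the gland below the brain whose endocrine cells each make mainly 1 hormone, and those hormones steer growth, reproduction, metabolism, stress and skin colour. Hormone genes are switched on by lineage transcription factors, hormone release is set by receptors for hypothalamic and gonadal signals, and the peptides are cut and stored in dense secretory granules before regulated release. Fish pituitaries also carry nerve endings from the hypothalamus inside the gland, so that a dissected pituitary lies in close contact with neural tissue.

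The estimated counts summed to between 6130672 and 10504901 per library, and to between 6906741 and 8061216 in the pituitary libraries. Levels are given as normalised CPM, which compares libraries for 1 gene. These are counts scaled to the library total times a factor that edgeR fits to each library (TMM). The factors ran from 0.2861 in large liver replicate 1 to 2.0552 in small brain replicate 2. Levels are also given as FPKM (fragments per kilobase of gene, scaled to the library total), which also compares genes. For 6 libraries the lowest, the median and the highest value are given. A gene was called where edgeR's adjusted p was below 0.05 and the fold at least 2, and 18585 of 22292 genes had enough counts to be tested. Log2 fold changes are pituitary minus the other tissue, ± SE. The 3 small pituitary libraries were nearly alike, with a median chi-square per degree of freedom of 1.22 over genes of at least 50 counts, against 4.11 among the 3 large ones and 0.693 from sampling alone. The small muscle libraries (1.28) and the large gonad libraries (1.68) were nearly alike too. The labels do not say how the pools were drawn, so p-values measure the spread between these libraries, which may in part be technical.

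The pituitary label was borne out by the hormone genes. The 9 tested hormone genes took 14.8%, 12.6% and 18% of all counts in large pituitary replicates 1, 2 and 3 and 16.9%, 16.9% and 15.8% in the small ones, against at most 0.00859% in any library of another tissue. In large pituitary replicate 2 the summed level of 39 neuron and glia markers was 1570 CPM, against 420.6 to 514.2 CPM in the other 5 pituitary libraries and 5872 to 8212 CPM in brain. At the median marker that library reached 19% of the brain level, and the other 5 reached 1.1% to 1.97%. Its s100b, a calcium-binding protein gene of astroglia, stood at 648.8 CPM, against 2.44 to 3.68 CPM in the other 5 pituitary libraries. The part of these markers in the results was not tested, and the counts of genes highest in pituitary are given with all 6 pituitary libraries and without this one. In bulk RNA, fewer cells of a type and less RNA per cell cannot be told apart.

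**Figure D1:**
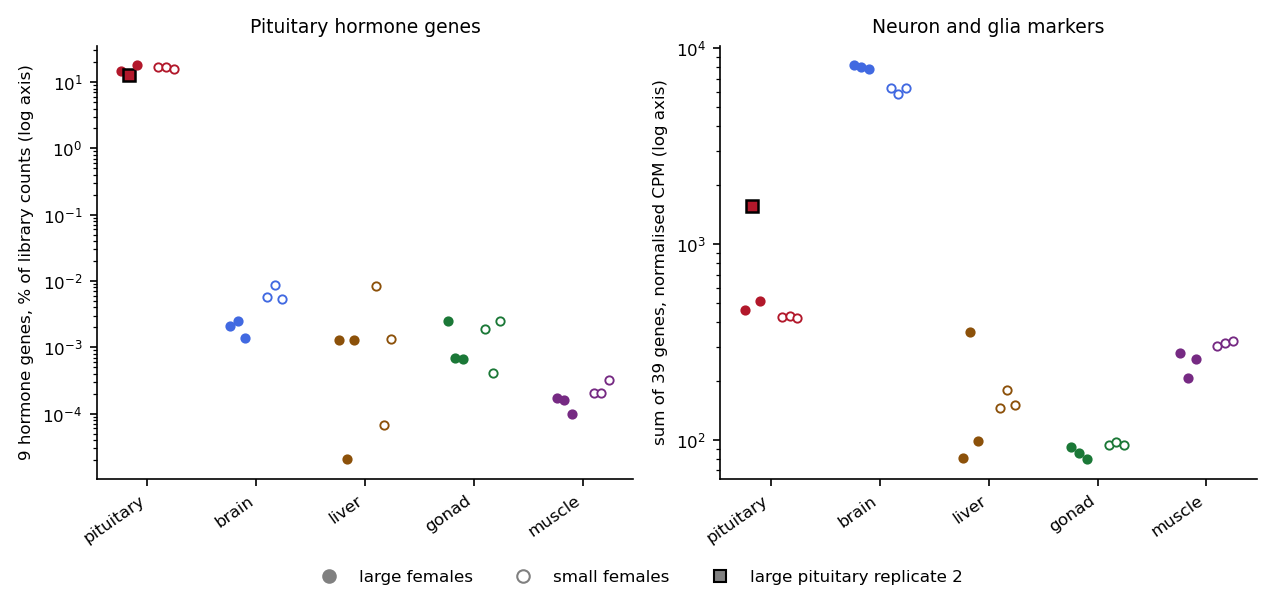
Share of the counts of each library in the 9 tested hormone genes (left, percent, log axis) and summed normalised CPM of 39 neuron and glia markers (right, log axis), 1 point per library, with large females filled and small females open. The 6 pituitary libraries hold 12.6% to 18% in hormone genes, and the square, large pituitary replicate 2, holds 1570 CPM of neuron and glia markers.

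Against brain, 2436 genes were higher in pituitary (13.1% of genes tested) and 4381 were lower (23.6%). Against liver, 5389 were higher (29.0%) and 3496 lower (18.8%). Against gonad, 7864 were higher (42.3%) and 5781 lower (31.1%), and against muscle 4683 were higher (25.2%) and 5833 lower (31.4%). Without large pituitary replicate 2 the counts were 2580 higher (13.6%) and 4575 lower (24.2%) against brain, 5378 (28.4%) and 3661 (19.4%) against liver, 7748 (41.0%) and 5997 (31.7%) against gonad, and 4663 (24.6%) and 6085 (32.2%) against muscle. The median log2 fold change of all genes was -0.12 against brain, 0.29 against liver, 0.44 against gonad and -0.20 against muscle. The split into higher and lower depended on the scaling in liver and muscle, whose libraries are taken up by few genes. On log2(FPKM + 1), 92.4% of the calls against liver and 86.4% of those against muscle were higher in pituitary, in place of 60.7% and 44.5%, and the median of all genes moved by 1.43 and 1.58 on the log2 scale. With median-of-ratios scaling 51.9% of the calls against muscle were higher. In either direction, 36.7% of genes tested were called against brain, 47.8% against liver, 73.4% against gonad and 56.6% against muscle. The 4 comparisons share the pituitary libraries.

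A set of 816 genes (4.39% of genes tested) was higher in pituitary than in each of the 4 tissues, and is called highest in pituitary below. These genes took 27.9%, 23.3% and 30.6% of the counts of large pituitary replicates 1, 2 and 3 and 28.9% to 29.7% of the counts of the small ones, against 1.18% to 1.83% in brain, 0.0957% to 0.231% in liver, 0.327% to 0.436% in gonad and 0.14% to 0.198% in muscle. A larger share in pituitary follows from how the set was chosen. The 9 hormone genes within the set took 12.6% to 18% of the counts of the pituitary libraries. Of the 816 genes, 197 (1.06% of genes tested) were at least 10-fold higher against every tissue. In 689 of them all 6 pituitary libraries lay above all 24 others, which held for 5.12% of genes tested. The tissue with the smallest fold change was brain for 510 genes, gonad for 118, liver for 109 and muscle for 79, and the median of the smallest of the 4 log2 fold changes was 1.91. Without large pituitary replicate 2, 878 genes (4.64%) were highest, 808 of them shared with the 816, and 8 were lost: lrrc34, armc2, tgm2b, smdt1a, cyb561, slc8a2a and the assembled loci XLOC_009082 and XLOC_021753. The genes just inside the 2-fold limit were efna5b and cyb561, and LOC103393822 and LOC103383207, the second at 0.997 on the log2 scale, lay just outside. A further 393 genes (2.11%) were lower in pituitary than in every other tissue, and 473 (2.5%) without large pituitary replicate 2, of which 378 were shared.

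**Figure D2:**
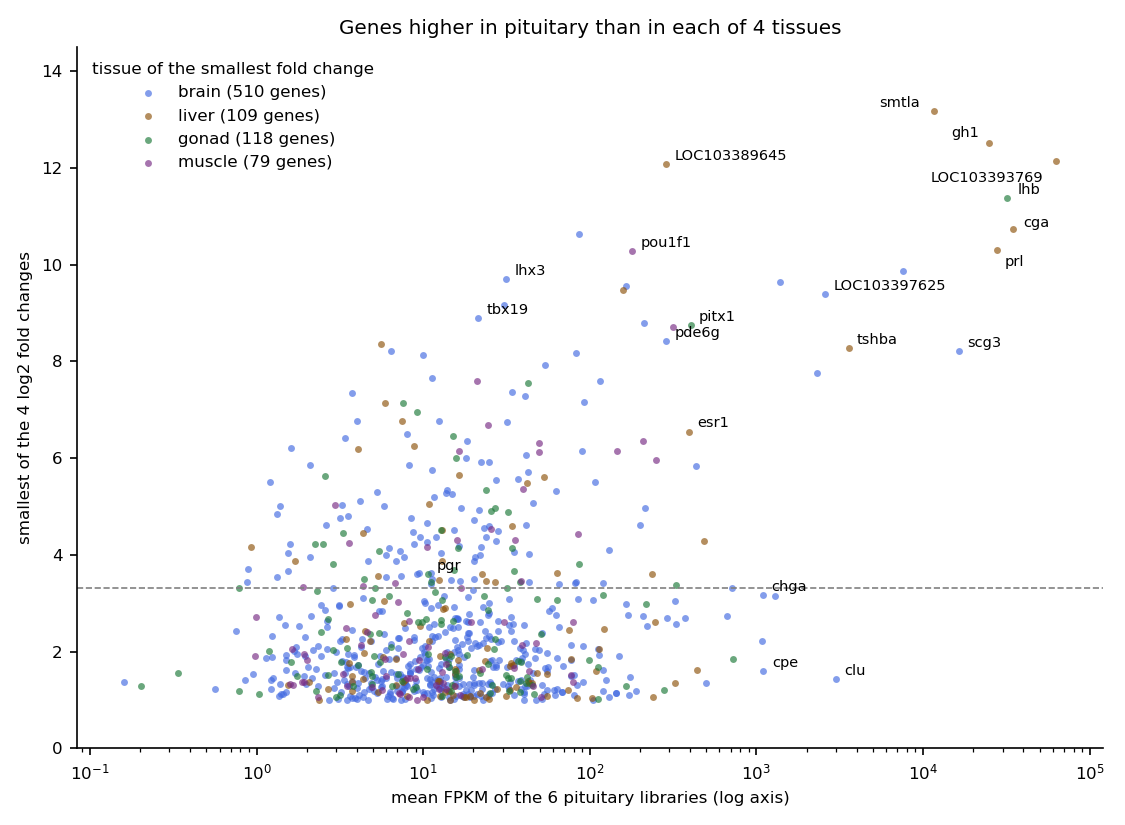
Each point is 1 of the 816 genes higher in pituitary than in each of 4 tissues, by its mean FPKM in the 6 pituitary libraries (horizontal, log axis) and the smallest of its 4 log2 fold changes (vertical), coloured by the tissue that gave it, with a dashed line at 10-fold. Hormone genes fill the upper right, and brain is the closest tissue for 510 genes.

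Hormones led the profile. Of 11 genes matched to the hormone list, 9 could be tested and all 9 were highest in pituitary, with and without large pituitary replicate 2. The median log2 fold change over the 9 was 12.86 against brain, 11.79 against liver, 14.14 against gonad and 15.88 against muscle, or 15.56 against muscle when the 3 members at 0 counts there are set to their bound. The 2 members not tested were prl2, a second prolactin gene, with 2 counts in pituitary and 3 in all libraries, and LOC103380354, with 0 counts. No gene matched fshb, the beta subunit of follicle-stimulating hormone.

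The proopiomelanocortin genes, precursors of adrenocorticotropic and melanocyte-stimulating hormone, differed widely in level. In mean FPKM, LOC103393769 stood at 62840, LOC103389827 at 7554 and LOC103380837 at 1377. LOC103393769, a proopiomelanocortin-like gene, had 18080, 26300 and 30500 CPM in pituitary, against 0.424, 2.90 and 6.24 CPM in brain and at most 12.4 CPM in any other library. At 62840 ± 12570 FPKM (SD, n = 6) it was the gene with the highest mean level among those highest in pituitary, and its smallest log2 fold change was 12.15 ± 1.26 against liver (edgeR, adjusted p = 9.94e-10). LOC103389827, also proopiomelanocortin-like, had 4086, 6241 and 6976 CPM in pituitary, against 0.438, 7.66 and 15.95 CPM in brain. The groups were far apart, and brain was its closest tissue (9.87 ± 1.0, adjusted p = 9.41e-09), while muscle held 0 counts, which puts pituitary at least 48400-fold higher. The third, LOC103380837, had 216.9, 988.4 and 1446 CPM in pituitary, with the lowest value in large pituitary replicate 2, against 0.146, 1.103 and 3.22 CPM in brain. Its log2 fold change against brain was 9.65 ± 0.61 (adjusted p = 2.64e-12), and 9.75 without that library.

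The glycoprotein hormones share the alpha subunit encoded by cga, and their beta subunits give them their identity. In pituitary cga had 10410, 12500 and 16150 CPM, against 0.106, 1.22 and 3.41 CPM in brain and 0, 4.96 and 37.3 CPM in liver. The smallest log2 fold change of cga was 10.73 ± 1.13 against liver (adjusted p = 1.38e-09), so that no library of another tissue came near the pituitary range. The luteinizing hormone beta gene lhb had 10420, 12360 and 27590 CPM in pituitary, against 3.02, 4.99 and 9.73 CPM in gonad, its closest tissue (11.37 ± 0.76, adjusted p = 2.2e-14). The thyrotropin beta gene tshba had 1210, 1545 and 3226 CPM in pituitary, with the highest value in large pituitary replicate 2, against 0, 0.383 and 30.4 CPM in liver. For tshba the log2 fold change against liver was 8.28 ± 1.0 (adjusted p = 1.94e-08), and 8.13 without large pituitary replicate 2. In mean FPKM, cga stood at 34610 ± 4571, lhb at 31970 ± 13540 and tshba at 3579 ± 1676.

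The growth hormone, prolactin and somatolactin genes belong to 1 family of helical hormones, and somatolactin is known from fishes, where it has been tied to pigment and metabolism. Growth hormone, gh1, had 5278, 12230 and 16660 CPM in pituitary, against at most 4.56 CPM in the 24 other libraries. Its 3 large pituitary libraries lay at 5278 to 9247 CPM and its 3 small ones at 15210 to 16660 CPM, and its smallest log2 fold change was 12.51 ± 1.15 against liver (adjusted p = 7.55e-11). Prolactin, prl, had 9119, 11220 and 15910 CPM in pituitary, against 0, 4.29 and 63.6 CPM in liver (10.31 ± 1.19, adjusted p = 8.32e-09). Somatolactin, smtla, had 4724, 6271 and 8229 CPM in pituitary, against at most 2.82 CPM elsewhere and 0 counts in muscle, where pituitary was at least 54700-fold higher. Its smallest log2 fold change, 13.18 ± 0.92 against liver (adjusted p = 3.13e-12), was the largest such value among the 816 genes. On the FPKM scale prl averaged 27680 ± 5537, gh1 24930 ± 10640 and smtla 11590 ± 2679 in pituitary.

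Low counts of hormone genes in other tissues were not spread evenly. Small liver replicate 1 held the highest value outside pituitary for prl, cga (37.29 CPM), tshba (30.43 CPM) and scg3 (234.7 CPM), and the 9 hormone genes summed to 754 counts there. Leaving out 1 library at a time, the smallest log2 fold change ran from 9.96 to 12.08 for prl, from 10.42 to 11.78 for cga and from 7.88 to 11.23 for tshba. All 3 stayed highest in each of these fits.

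**Figure D3:**
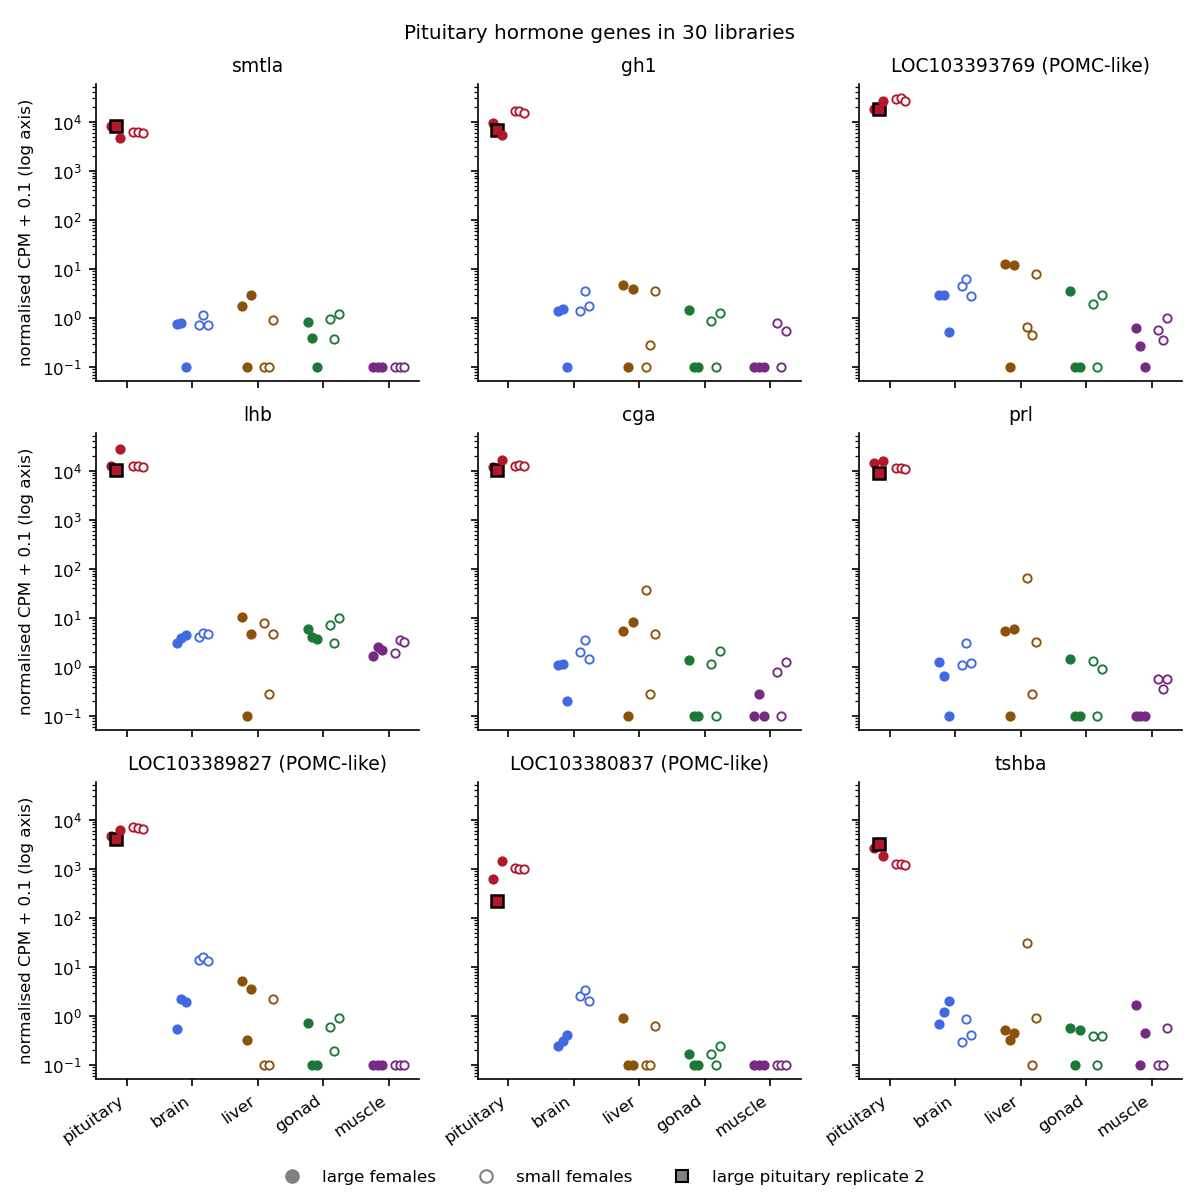
Normalised CPM + 0.1 (log axis) of the 9 tested hormone genes in the 30 libraries by tissue, 1 point per library, with large females filled, small females open and large pituitary replicate 2 as a square. Every pituitary library lies above every other library for each gene, and small liver replicate 1 is the highest other library for prl, cga and tshba.

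Counts of list members below are to be read against the share of all genes tested that passed the same call, which was 13.1% higher and 23.6% lower against brain, 29.0% and 18.8% against liver, 42.3% and 31.1% against gonad, 25.2% and 31.4% against muscle, and 4.39% for genes highest in pituitary. Members with too few counts were not tested. A gene that is high in pituitary passes that filter, so shares over tested members can overstate the share of a list. Lineage transcription factors formed the next group, with 43 genes matched. Of 37 tested members of that list, 20 were higher and 8 lower in pituitary against brain, 29 higher and 1 lower against liver, 28 and 6 against gonad, and 24 and 5 against muscle. In all, 13 (35.1%) were highest in pituitary, with and without large pituitary replicate 2, beside the 4.39% of all genes tested, while the 21.6% lower than brain lay near the share of all genes. The median member's log2 fold change was 1.18 against brain, 6.36 against liver, 5.98 against gonad and 3.42 against muscle. With members at 0 counts set to their bound, those medians became 1.18, 5.23, 5.75 and 3.36.

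Among the factors that specify hormone lineages in mammals, pou1f1, lhx3 and tbx19 had 4, 1 and 1 counts in the 24 libraries of other tissues. The gene pou1f1, needed for growth hormone, prolactin and thyrotropin cells, had 100.8, 112.3 and 136.0 CPM in pituitary, against 0 counts in liver and gonad and 2 each in brain and muscle. Its level in pituitary was thus at least 946-fold higher than in liver and at least 3370-fold higher than in gonad. The fitted log2 fold change against muscle was 10.28 ± 0.41 (edgeR, adjusted p = 8.87e-15), but it rests on 2 counts in muscle, so its SE is to be read with care. For lhx3, a LIM homeobox gene of the whole gland primordium, the pituitary values were 17.9, 20.1 and 25.6 CPM and the other 24 libraries held 1 count in all. The related lhx4 averaged 18.25 CPM in pituitary and at most 0.599 CPM, in gonad, among the other tissues. The corticotroph and melanotroph factor tbx19 had 8.20, 11.1 and 16.2 CPM in pituitary, again with 1 count in brain and 0 in the other 3 tissues. The melanotroph factor pax7 averaged 20.6 CPM in pituitary, against 2.36 CPM in brain, with a log2 fold change of 3.12 there (adjusted p = 1.66e-09).

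Factors of broader use in the gland were also highest in pituitary. The gene pitx1, a homeobox activator of several hormone genes, had 205.0, 256.5 and 269.3 CPM in pituitary, lowest in large pituitary replicate 2, against 0.283, 0.399 and 1.05 CPM in gonad, its closest tissue (8.75 ± 0.36, adjusted p = 4.98e-17). The zinc finger factor insm1b, a regulator of endocrine differentiation, had 107.8, 146.4 and 155.2 CPM in pituitary, against 1.69, 2.87 and 5.80 CPM in brain and 0 counts in the other 3 tissues. The values of six3b, a homeobox gene of the forebrain and pituitary field, spread little, with 44.9, 46.6 and 48.0 CPM in pituitary, against at most 0.591 CPM elsewhere. Also highest were six3, gata2a and pax6. Among members that were not highest, neurod1 averaged 221.4 CPM in pituitary, against 150.4 CPM in brain (log2 fold change 0.49, not called). The gene annotated as steroidogenic factor 1 (LOC103397689), a gonadotroph factor in mammals, had 0 counts in pituitary and was not tested.

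A relative of that factor was among the most pituitary-biased genes. LOC103389645, annotated as similar to nuclear receptor subfamily 5 group A member 2, had 128.1, 238.5 and 278.9 CPM in pituitary. The other 24 libraries held 4 counts, of which 1 fell in brain, 1 in liver, 2 in gonad and 0 in muscle. The ratio against brain was 18600 (exact 95% counting interval 3340 to 735000), that against liver 5380 (966 to 213000) and that against gonad 9590 (2650 to 79200), and pituitary was at least 1840-fold higher than muscle. Intervals and bounds cover counting error only. Other transcription factor genes with a very large smallest fold were fev, an ETS factor of serotonin neurons, with 73.9, 100.1 and 107.6 CPM in pituitary, against at most 0.51 CPM elsewhere, and tbx20, a T-box factor best known from heart, with 13.0, 20.6 and 32.3 CPM, against at most 0.14 CPM.

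Of 45 tested receptors for hypothalamic and peripheral signals, 17 were higher and 11 lower in pituitary against brain, 24 and 7 against liver, 29 and 9 against gonad, and 26 and 9 against muscle. Their median log2 fold changes were 0.27, 2.32, 2.80 and 1.62, or 0.27, 1.24, 2.70 and 1.57 with members at 0 counts set to their bound. The receptor list matched 65 genes. Of the 45 tested, 8 (17.8%) were highest in pituitary, and 9 without large pituitary replicate 2, beside the 4.39% of all genes tested. The 24.4% lower than brain lay near the 23.6% of all genes.

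Both esr1 and pgr, receptors for steroids, were among the 8, and they differed in level, at 395.3 FPKM for esr1 and 10.74 FPKM for pgr. The estrogen receptor gene esr1 had 279.8, 569.2 and 782.6 CPM in pituitary, against 1.67, 5.86 and 14.1 CPM in liver, its closest tissue (6.55 ± 0.50, adjusted p = 1.55e-12). The progesterone receptor gene pgr had 11.8, 23.01 and 44.8 CPM in pituitary, against 0.289, 1.88 and 3.80 CPM in gonad (3.61 ± 0.45, adjusted p = 1.28e-08). The pituitary values of both genes split by size class, in opposite directions, with esr1 lower and pgr higher in all 3 large libraries than in all 3 small ones. A second estrogen receptor gene, esr2a, averaged 87.1 CPM in pituitary, against 162.5 CPM in liver, and was not highest. On log2(FPKM + 1) the median of all genes against liver moved by 1.43, so no direction is read for esr2a against liver.

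The receptors for hypothalamic peptides and dopamine named here differed in how their pituitary level compared with brain. The 11 tested list members lower than in brain are not among them. LOC103392947, a somatostatin receptor type 5-like gene whose human counterpart mediates inhibition of hormone release, had 62.0, 74.3 and 78.7 CPM in pituitary, against 0, 0.127 and 0.562 CPM in brain and 0 counts in the other 3 tissues. LOC103379388, a gonadotropin-releasing hormone receptor-like gene, had 0.867, 3.67 and 8.95 CPM in pituitary, lowest in large pituitary replicate 2 and highest in large pituitary replicate 3, which also had the highest lhb value. It had 0 counts in all 24 other libraries, so that pituitary was at least 119-fold higher than brain, 34.4-fold higher than liver, 122-fold higher than gonad and 35.2-fold higher than muscle. The vasoactive intestinal peptide receptor gene vipr1 had 28.9, 54.1 and 129.4 CPM in pituitary, against 1.69, 3.27 and 5.04 CPM in brain (4.02 ± 0.35, adjusted p = 8.4e-11). The dopamine receptor gene drd2, whose product restrains prolactin and gonadotropin release, averaged 21.8 CPM in pituitary, against 8.4 CPM in brain (log2 fold change 1.34, adjusted p = 8.27e-04). The corticotropin-releasing factor receptor gene crhr1 averaged 10.2 CPM in pituitary, against 4.46 CPM in brain (1.19, adjusted p = 9.72e-04). The growth hormone-releasing hormone receptor gene ghrhr averaged 0.331 CPM in pituitary, against 0.885 CPM in brain, and had too few counts to be tested.

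Binding proteins and peptides in the gland included LOC103397625, a corticotropin-releasing factor-binding protein-like gene. It had 1037, 2323 and 2369 CPM in pituitary, lowest in large pituitary replicate 2, against 1.17, 3.14 and 4.28 CPM in brain (9.39 ± 0.50, adjusted p = 4.68e-15). At 2577 ± 728 FPKM it ranked among the 15 genes of highest level in pituitary, while the gene carrying the symbol crhbp averaged 1.56 CPM in pituitary, against 2.74 CPM in brain. Of 23 tested hypothalamic and neurohypophysial peptides, 2 were higher and 18 lower in pituitary against brain, with a median log2 fold change of -3.70. The 2 were penk, which encodes the enkephalin precursor, with 59.8, 243.7 and 272.9 CPM in pituitary, lowest in large pituitary replicate 2, against 11.8, 29.7 and 50.7 CPM in brain (2.69 ± 0.37, adjusted p = 4.29e-07), and agrp. The agouti-related peptide gene agrp, a melanocortin receptor antagonist, had 109.3, 204.7 and 247.9 CPM in pituitary, against 0, 2.46 and 19.04 CPM in brain and 0, 1.33 and 48.9 CPM in liver (4.29 ± 1.04, adjusted p = 8.39e-04). Both were highest in pituitary. Neuropeptide Y, npy, had 0 counts in pituitary. Against liver 10 peptides were higher and 1 lower, against gonad 12 and 5, and against muscle 9 and 3, with medians of 2.22, 1.62 and 2.17, or 1.66, 1.17 and 0.62 at the bound of members with 0 counts. Without large pituitary replicate 2 they were 10 and 2 against liver, 8 and 6 against gonad and 7 and 5 against muscle, with medians of 1.74, 0.06 and 1.06. The 2 highest are 8.7% of the 23 tested members, with 34 genes matched, beside the 4.39% of all genes tested.

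The machinery of prohormone processing and granule storage differed from brain in fewer members than from the other 3 tissues, as did all genes tested. Of all genes, 36.7% were called against brain, 47.8% against liver, 73.4% against gonad and 56.6% against muscle. Against brain 40.5% of the tested members were higher and 21.6% lower, beside 13.1% and 23.6% of all genes. Of 37 tested members, 15 were higher and 8 lower in pituitary against brain, 29 and 3 against liver, 31 and 1 against gonad, and 32 and 2 against muscle, with median log2 fold changes of 0.57, 5.85, 5.42 and 5.94, or 0.57, 5.52, 5.42 and 5.72 at the bound. Of the 37, 12 (32.4%, beside 4.39% of all genes) were highest in pituitary with all 6 libraries and without large pituitary replicate 2. Secretogranin 3, scg3, which binds chromogranin A to the granule membrane, had 23890, 26510 and 29010 CPM in pituitary, against 69.1, 88.7 and 97.4 CPM in brain (8.21 ± 0.67, adjusted p = 2.72e-11). In FPKM it stood at 16430 ± 1193, within the range of the hormone genes. The other granins and enzymes named here were lower, at no more than 1102 FPKM, and differed less from brain. Chromogranin A, chga, had 771.3, 1037 and 1414 CPM in pituitary, against 98.1, 108.4 and 162.0 CPM in brain (3.17 ± 0.40, adjusted p = 7.62e-08), and scg2 and scg5 were 2.58 ± 0.29 and 2.73 ± 0.36 higher than brain on the log2 scale. Carboxypeptidase E, cpe, which trims the basic residues left by the convertases, had 1241, 1608 and 1720 CPM in pituitary, against 446.0, 484.6 and 658.2 CPM in brain (1.59 ± 0.31, adjusted p = 6.5e-05). The convertases pcsk1 and pcsk2 averaged 177.6 and 349.8 CPM in pituitary, against 42.5 and 61.0 CPM in brain, and both were highest. Chromogranin B, chgb, went the other way, with a mean of 3.52 CPM in pituitary, of which large pituitary replicate 2 had 15.1 CPM, against 93.8 CPM in brain (log2 fold change -5.12). Also on this list, rab3a, which serves synaptic vesicle release, averaged 10.6 CPM in pituitary, against 44.9 CPM in brain.

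Most genes of secretory pathway entry and protein folding were higher in pituitary than in brain, gonad and muscle. Of 58 tested genes, 50 were higher and 1 lower in pituitary against brain, 40 and 2 against gonad and 42 and 0 against muscle. Against liver 4 were higher and 9 lower. The median log2 fold changes were 1.85, 1.43, 1.54 and, against liver, -0.17. On log2(FPKM + 1) the median of all genes against liver moved by 1.43, more than this list's median, and 49 members were then higher and 0 lower, so no direction is read for the list against liver. Of the 58, 4 (6.9%) were highest in pituitary, a share near the 4.39% of all genes tested. These were sdf2l1, an endoplasmic reticulum chaperone partner, ern1, a sensor of unfolded proteins, creb3l1, a membrane-bound transcription factor of secretory cells, and srpr, a subunit of the signal recognition particle receptor. The pituitary values of sdf2l1 were 213.7, 253.6 and 481.5 CPM, against 10.6, 40.7 and 108.9 CPM in liver (2.62 ± 0.37, adjusted p = 2.93e-07). Those of ern1 were 200.0, 214.3 and 305.4 CPM in pituitary, against 49.7, 53.0 and 111.9 CPM in liver (1.87 ± 0.16, adjusted p = 2.44e-11), and gonad was as close (1.83 ± 0.16). Neither gene overlapped between pituitary and liver.

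Ion channels of excitable cells were split between pituitary and brain. Of 38 tested voltage-gated calcium, sodium and potassium channel genes, 10 were higher and 11 lower in pituitary against brain, 35 and 1 against liver, 26 and 6 against gonad, and 26 and 3 against muscle, with median log2 fold changes of 0.29, 5.81, 3.43 and 3.16, or 0.29, 3.95, 3.43 and 3.16 at the bound. Of the 38, 7 (18.4%) were highest in pituitary and 8 without large pituitary replicate 2, beside the 4.39% of all genes tested. The 26.3% higher and 28.9% lower than brain compare with 13.1% and 23.6% of all genes. The sodium channel beta subunit gene scn3b had 176.7, 209.9 and 222.5 CPM in pituitary, against 22.7, 30.5 and 40.2 CPM in brain (2.75 ± 0.22, adjusted p = 2.37e-11). The sodium channel alpha subunit gene scn1lab had 83.8, 130.4 and 138.2 CPM in pituitary, against 38.9, 49.9 and 60.1 CPM in brain (1.34 ± 0.26, adjusted p = 6.47e-05). The potassium channel gene kcnh6, of the ether-a-go-go family, had 32.4, 54.4 and 62.0 CPM in pituitary, against 7.52, 10.8 and 13.9 CPM in brain (2.18 ± 0.25, adjusted p = 2.23e-08). In all 3 genes the lowest pituitary value came from large pituitary replicate 2 and still lay above every brain value.

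**Figure D4:**
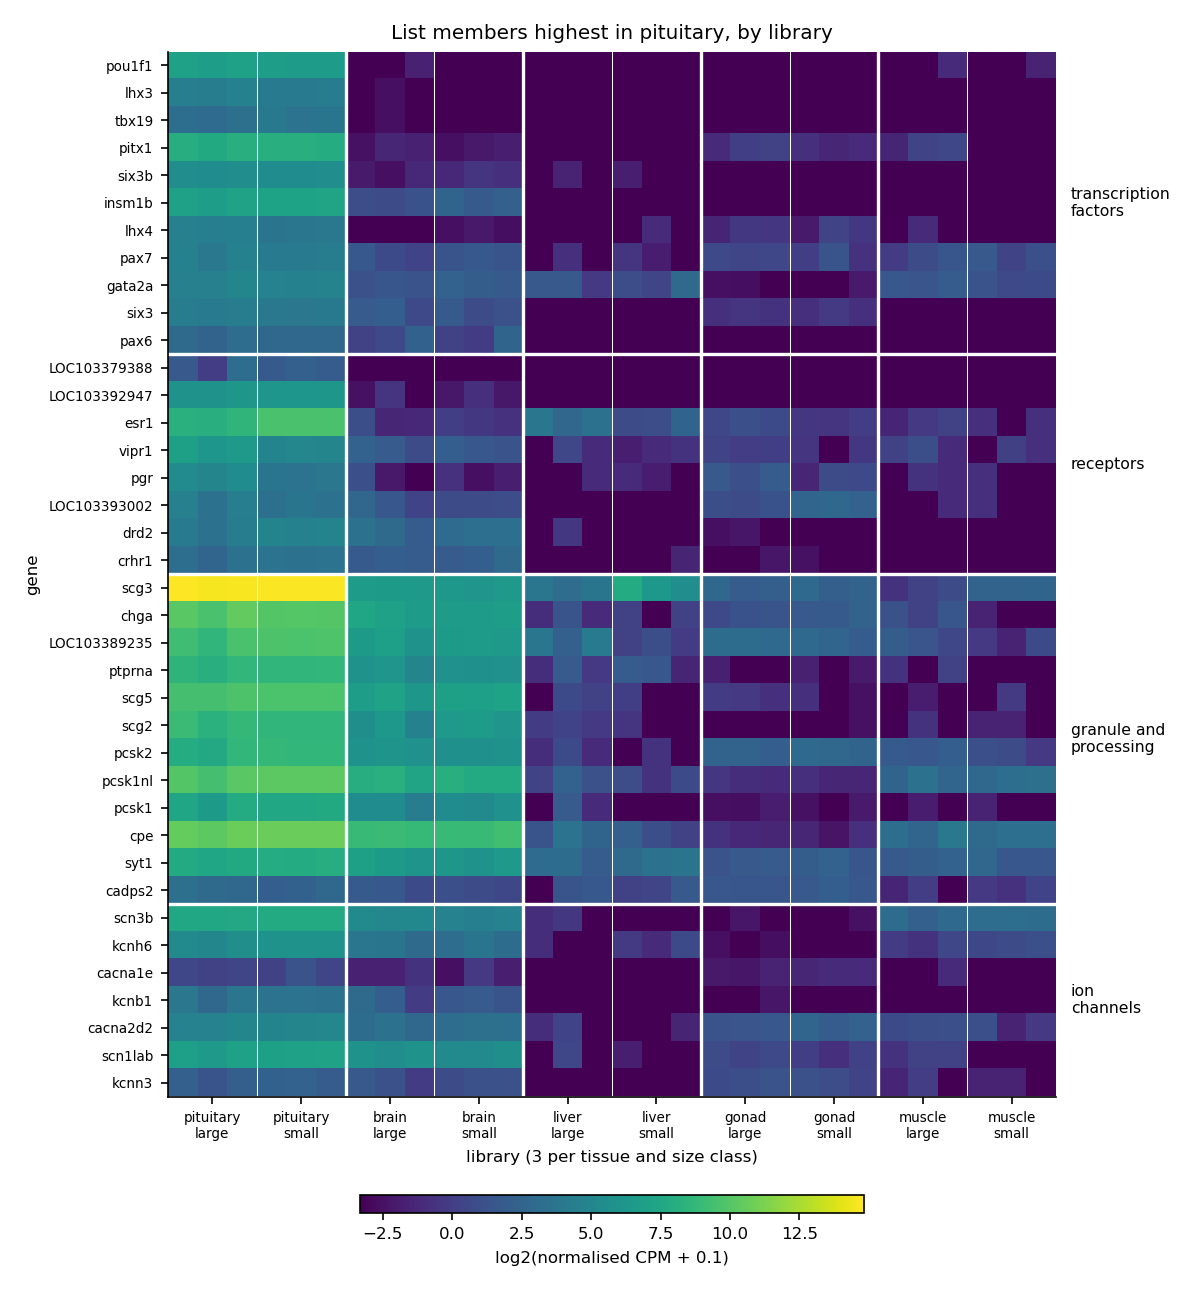
Log2(normalised CPM + 0.1) of transcription factors, receptors, granule and processing genes and ion channels that were highest in pituitary (rows), in 30 libraries (columns, 3 per tissue and size class). Row by row the pituitary columns at the left are on average the brightest, scg3 is the brightest row, and granule genes and channels also show in brain.

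Of 2 smaller groups, few members were highest, at shares of 6.9% and 5.26% near the 4.39% of all genes. Among 29 tested paracrine factors, activins and follistatins, 5 were higher and 9 lower in pituitary against brain, 10 and 5 against liver, 16 and 7 against gonad, and 11 and 7 against muscle (medians -0.02, 0.59, 1.94 and 0.55), and 2 were highest. Except against gonad and for the members higher than muscle, these shares lay near those of all genes. The 2 were fstl5, follistatin-like 5, with 26.3, 35.04 and 69.0 CPM in pituitary, against 7.62, 12.6 and 16.4 CPM in brain (1.72 ± 0.25, adjusted p = 8.16e-06), and gphb5, the beta subunit of thyrostimulin, with 2.21, 5.49 and 7.76 CPM in pituitary, against 0.296, 0.622 and 0.938 CPM in gonad (3.16 ± 0.52, adjusted p = 9.59e-06). Among 19 tested genes of thyroid hormone and retinoid handling, 4 were higher and 5 lower against brain, 6 and 7 against liver, 14 and 1 against gonad, and 7 and 7 against muscle (medians 0.27, -0.50, 3.91 and 0.22), and 1 was highest. On log2(FPKM + 1) the medians against liver and muscle were 0.91 and 1.16, with 9 higher and 4 lower and 10 and 1, so no direction is read there. That gene was slco1c1, a thyroxine transporter, with 15.7, 21.5 and 31.1 CPM in pituitary, against 1.80, 4.24 and 8.80 CPM in brain (2.21 ± 0.32, adjusted p = 7.35e-07).

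Genes outside these lists were named for their level or their fold. Clusterin, clu, a secreted chaperone, had 2732, 3536 and 3746 CPM in pituitary, lowest in large pituitary replicate 2, against 890.4, 1367 and 1442 CPM in brain (1.44 ± 0.36, adjusted p = 0.00121). The assembled locus XLOC_014034, which the authors' table names as a hypothetical protein, averaged 2295 ± 1153 FPKM, and its 6 pituitary libraries ranged from 99.6 CPM in large pituitary replicate 1 to 919.1 CPM. The secretagogin-like gene scgn_103388328, one of 2 entries with the symbol scgn and a calcium sensor gene of endocrine cells, had 283.5, 305.4 and 342.6 CPM in pituitary, against 1.59, 6.31 and 8.08 CPM in brain (5.84 ± 0.33, adjusted p = 1.4e-14). LOC103381002, annotated as similar to low choriolytic enzyme, a protease known from fish hatching, had 20.6, 37.4 and 80.3 CPM in pituitary and 1 count in the 24 other libraries. The membrane gene elapor1, linked to granule and lysosome traffic in mammals, had 419.5, 513.7 and 529.1 CPM in pituitary, against 0.128, 0.405 and 0.591 CPM in brain and 10.2, 27.4 and 106.5 CPM in liver (3.61 ± 0.46, adjusted p = 5.12e-08). The retinal name pde6g, a phosphodiesterase subunit of photoreceptors, had 72.8, 93.6 and 114.1 CPM in pituitary, against at most 0.803 CPM elsewhere. LOC103388033 and LOC103387814, both partial entries annotated as similar to CD69, an activation antigen of lymphocytes, averaged 663.8 and 624.4 CPM in pituitary, and how reads were split between them is uncertain.

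**Figure D5:**
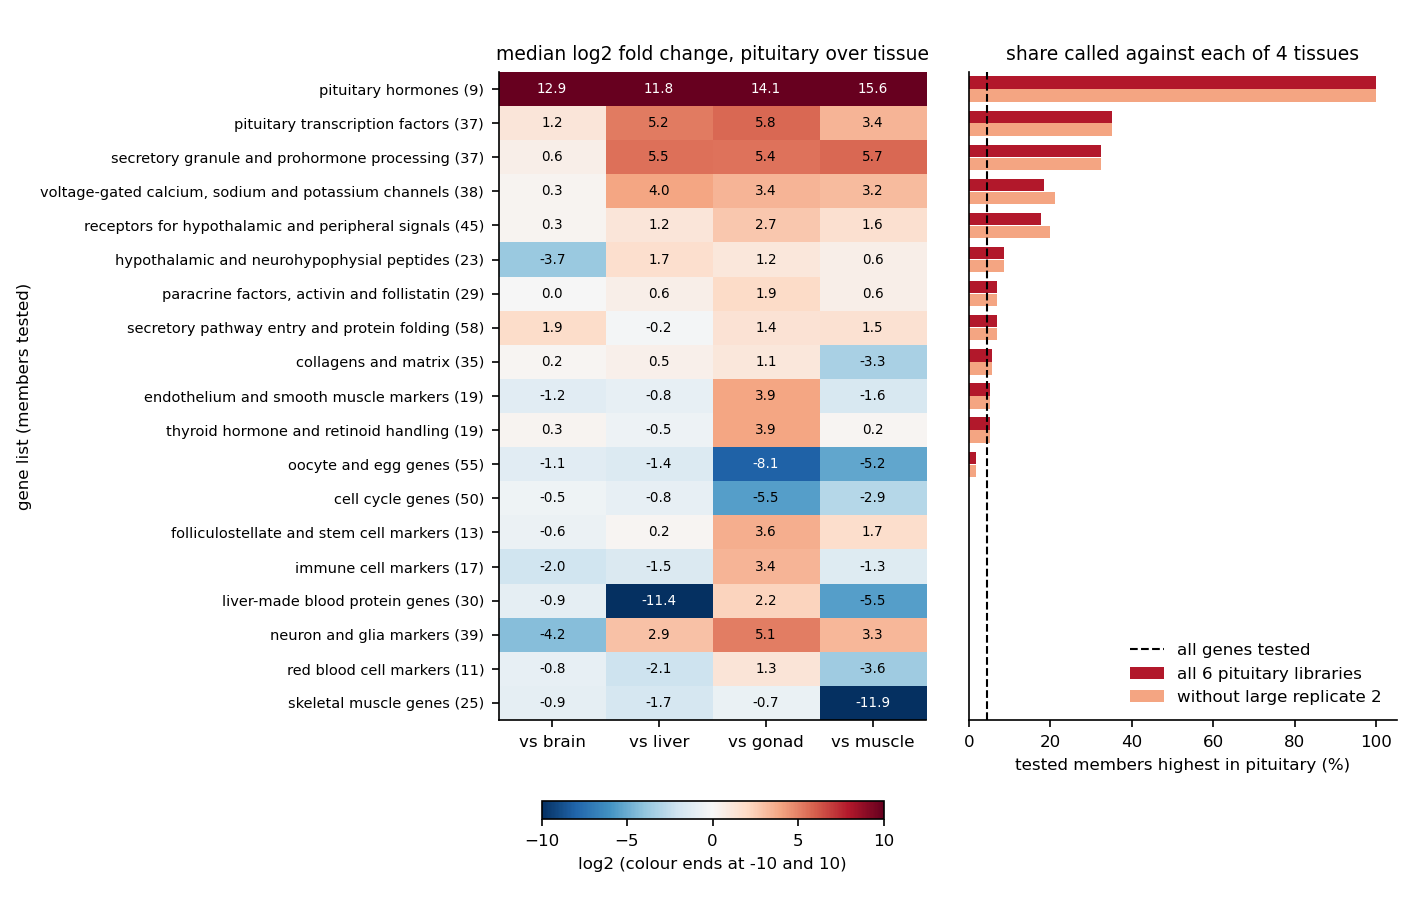
Median log2 fold change of pituitary over each tissue for 19 gene lists, with members at 0 counts in a group set to their bound (left, numbers and colour), and the percentage of tested members that were highest in pituitary with all 6 pituitary libraries (dark) and without large pituitary replicate 2 (light) (right), with the 4.39% of all genes tested as a dashed line. Hormones, transcription factors, granule genes, channels and receptors lie furthest above that line.

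Genes of the other tissues were low in pituitary. All 30 tested genes of blood proteins made in liver were lower in pituitary than in liver (median -11.45), and all 25 skeletal muscle genes were lower than in muscle (-12.08). All 50 cell cycle genes were lower than in gonad (-5.54), as were 48 of 55 oocyte and egg genes (-8.31, with 1 higher). Against muscle 45 cell cycle and 44 oocyte and egg genes were lower too, and 18 and 27 on log2(FPKM + 1). The muscle libraries carried 904.5 to 3884 CPM of cell cycle genes, against 199.8 to 266.6 CPM in pituitary, and 2127 to 10190 CPM of oocyte and egg genes, against 160.0 to 218.3 CPM in pituitary and 29060 to 49680 CPM in gonad. The part of this in the comparison with muscle was not tested. The 1 oocyte-list gene that was highest in pituitary was nanos1, with 61.0, 74.9 and 83.4 CPM, against 26.6, 30.9 and 41.4 CPM in brain.

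Markers of other cell types within the gland gave mixed results. Of 39 neuron and glia markers, 0 were higher and 37 lower in pituitary than in brain, with a median of -4.23, and of -6.07 without large pituitary replicate 2. Against the other tissues the same library weighed on the result: 22 were higher and 3 lower than in liver, against 18 and 11 without it, and 23 higher and 9 lower than in muscle, against 18 and 13. Against gonad 30 were higher and 5 lower, and 23 and 7 without it. Of 17 immune cell markers, 0 were higher and 13 lower than in brain, 1 and 10 than in liver, 16 and 1 than in gonad, and 0 and 11 than in muscle. Against liver and muscle this depended on the scaling, since on log2(FPKM + 1) 2 and 1 were higher and 0 lower, with medians of 0.40 and 0.46 in place of -1.48 and -1.28. Of 19 endothelium and smooth muscle markers 2 were higher and 10 lower than in brain, 3 and 7 than in liver, 14 and 3 than in gonad, and 1 and 13 than in muscle. On log2(FPKM + 1) these turned to 9 higher and 0 lower than in liver and 4 and 3 than in muscle, with medians of 0.86 and 0.18 in place of -0.83 and -1.62, so no direction is read for either list against these tissues. The 10.5% higher than brain lay near the 13.1% of all genes. Only 1 of the 19 (5.26%, near the 4.39% of all genes) was highest, plvap, a gene of fenestrated endothelium, with 21.6, 54.4 and 81.3 CPM in pituitary, against 9.36, 21.2 and 34.8 CPM in muscle (1.29 ± 0.30, adjusted p = 3.33e-04). Those ranges overlapped, since the 3 large pituitary libraries lay at 21.6 to 39.9 CPM and the 3 small ones at 69.0 to 81.3 CPM. Of 13 folliculostellate and stem cell markers, 2 were higher and 5 lower than in brain, 6 and 3 than in liver, 11 and 0 than in gonad, and 7 and 3 than in muscle. The epithelial gene epcam, one of these, had 692.3, 795.1 and 894.1 CPM in pituitary, against 5.47, 8.69 and 14.51 CPM in brain (6.498 ± 0.37, adjusted p = 1.58e-14) and 881.1, 963.9 and 1563 CPM in gonad. Of 11 red blood cell markers, 1 was higher and 4 lower than in brain, and 6 and 0 than in gonad. Of these markers 10 were lower than in liver and 10 lower than in muscle, but 1 and 5 on log2(FPKM + 1). Of 35 collagen and matrix genes 13 were higher and 9 lower than in brain, and 18 and 7 than in gonad. Against liver 9 were higher and 15 lower, but 14 and 1 on log2(FPKM + 1). Against muscle 27 were lower and 3 higher, and 18 and 5 on log2(FPKM + 1).

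Among the genes lowest in pituitary, ppp1r14a, an inhibitor subunit of myosin phosphatase, had 0.0727, 0.370 and 5.28 CPM in pituitary, highest in large pituitary replicate 2, against 8.002, 12.9 and 37.1 CPM in muscle, its closest tissue (-3.91 ± 0.67, adjusted p = 5.78e-06, and -5.57 without that library). The cytosolic aspartate aminotransferase gene LOC103383201, which moves nitrogen between amino acids, had 8.54, 9.68 and 14.98 CPM in pituitary, against 39.7, 52.0 and 62.7 CPM in brain (-2.30 ± 0.16, adjusted p = 1.09e-12). Argininosuccinate synthase, ass1, had 1.67, 2.94 and 5.99 CPM in pituitary, against 13.5, 14.52 and 26.3 CPM in muscle (-2.37 ± 0.40, adjusted p = 4.19e-06). In these 3 genes no pituitary value reached the lowest value of the tissue named. On log2(FPKM + 1) the smallest of the 4 falls was -0.42 for ass1 and -0.94 for LOC103383201, short of 2-fold.

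Size class was crossed with tissue to ask whether the height of a gene in pituitary over the mean of the other 4 tissues depended on the size of the fish. Of the 18585 genes tested, 38 (0.204%) were higher and 67 (0.361%) lower in large females at an adjusted p below 0.05. These counts depended on single libraries. Without large pituitary replicate 2 they were 20 and 38, without any 1 of the small pituitary libraries 14 to 17 and 33 to 35, and without small liver replicate 3 they were 59 and 135. Without small muscle replicate 2 they were 25 and 44, without large gonad replicate 2 or 3 the count higher was 25 or 23, and without large pituitary replicate 1 the count lower was 37. DESeq2 gave 220 and 301.

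Of the 145 genes chosen for naming, 3 passed, and all were relatively lower in large females. Each difference also takes in how the other tissues differed between the size classes, so it is not the fall within pituitary alone. For esr1 and LOC103389235 the part of the other tissues was not tested separately. In the large pituitary libraries esr1 stood at 289.9, 279.8 and 370.8 CPM, against 779.8, 767.5 and 782.6 CPM in the small ones, and its difference was -2.40 on the log2 scale (adjusted p = 0.0188). It passed in 29 of 30 fits that left out 1 library (adjusted p 0.00331 to 0.0524), with 0.0524 without large muscle replicate 2 and -2.33 without large pituitary replicate 2 (adjusted p = 0.0409). LOC103389235, similar to the granule membrane protein PTPRN, had 603.5, 401.1 and 793.7 CPM in large and 876.1, 829.9 and 919.9 CPM in small pituitary libraries. Its difference was -1.85 (adjusted p = 0.0329), which passed in 21 of 30 such fits and gave -1.62 without large pituitary replicate 2 (adjusted p = 0.103). Within pituitary, the means of large and small libraries were 599.5 and 875.3 CPM for LOC103389235, less than 2-fold apart. For esr1 they were 313.5 and 776.6 CPM, more than 2-fold apart. For scn1lab the pituitary values overlapped, with 120.5, 83.8 and 131.7 CPM in large and 129.9, 130.8 and 138.2 CPM in small libraries. Its difference of -2.82 (adjusted p = 0.0214) fell to -1.41 (adjusted p = 1) without large liver replicate 2, which carried 354.8 CPM of neuron and glia markers, the highest sum among the liver libraries.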

How the data were processed

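RNA-seq libraries of 5 tissues of large and small females were analysed, 30 in all with 3 per group, each from RNA pooled from 2 fish. The authors deposited 1 table of estimated counts and FPKM values per gene and library, per the file headers. The authors' estimated counts were not whole in 2% of values and were rounded here. The deposited FPKM values equalled those counts per library total and gene length within a median relative deviation of 0.0001. EdgeR is named in the submitters' processing notes, while for the aligner and the build the sources used here give no name. Of 22292 genes, 20373 carried NCBI gene numbers, of which 19502 matched RefSeq (Cse_v1.0), and 1919 were assembled loci. No gene was placed on the genome.

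All 30 libraries entered 1 fit of tissue with size class as covariate in edgeR 4.0.16 (R 4.3.3), with filterByExpr, TMM scaling, the two-sided quasi-likelihood test and Benjamini-Hochberg adjustment over all genes tested. The size class comparison used a model of 10 groups. Levels are TMM-normalised CPM. A gene with 0 counts in a tissue was set against a floor of 3 counts over the group. For 1 to 3 counts, a ratio with its 95% interval (exact, Clopper-Pearson) is printed for LOC103389645 only. Both cover counting error only. In simulated data of 18179 genes, 4-fold changes were recovered in 89% of genes against brain, 85% against liver, 88% against gonad and 88% against muscle, and 2-fold changes in 40.8%, 37.8%, 38.8% and 37.8%, with 4, 9, 3 and 5 false calls. For the size class comparison, 61.9% of 4-fold changes were recovered. In the simulation all tissues had the same mean levels except for the genes chosen to change. Its calls needed an adjusted p below 0.05 with no fold minimum. In the data 36.7% to 73.4% of genes tested were called between tissues, so these rates do not carry over to the calls above.

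Genes named were every tested hormone gene, the 20 genes highest in pituitary of at least 10 CPM with the largest smallest fold, the 15 of highest FPKM, the 4 largest remaining rises per comparison, the 6 largest falls among genes lowest in pituitary, and up to 6 members of each of 19 lists. These members had the largest smallest fold of their list, so they are its most pituitary-biased members. For lists of other cell types or tissues they had the highest level in pituitary. Other list members named in the text, such as chgb, drd2, crhr1, neurod1, pax7, lhx4, pcsk1, pcsk2 and rab3a, were chosen after their values were seen, as was LOC103387814. Some list members are not reported here by name, though they stay in the fits and counts. The libraries and lists were chosen with earlier results of these data known. Alternatives used DESeq2 1.42.0, limma 3.58.1 on log2(FPKM + 1) and log2(FPKM + 0.1), other scalings, filters and call rules, a replicate block, and each library left out. Tables and figures were made with matplotlib 3.10.9, pandas 2.3.3, scipy 1.17.1 and numpy 2.4.6 under Python 3.11.15.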

Additional observations from a re-analysis of the deposited data

Results flagged for a closer look

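Among 45 sets of the 6 pituitary libraries, 11 had 1 library whose gap to the nearest other exceeded 0.625 of the whole range. For 6 independent values of 1 normal spread, chance gives about 1 in 20 sets. That rate does not carry over here, since the sets share libraries, 2 size classes are mixed and the small libraries were nearly alike. Large pituitary replicate 2 was the lowest library for pitx1 (205.0 CPM), for clu (2732 CPM) and for the summed levels of the granule and prohormone processing genes (29770 CPM), the collagens and matrix genes (884.3 CPM) and the skeletal muscle genes (174.1 CPM). The same library was the highest for the summed neuron and glia markers (1570 CPM), folliculostellate and stem cell markers (1957 CPM) and liver-made blood protein genes (630.7 CPM). The folliculostellate list includes s100b, whose high value in this library is given above. Brain carried 4393 to 11420 CPM of that list. Of the liver-made list, brain carried 2542 to 5411 CPM and liver 298600 to 555700 CPM. Large pituitary replicate 1 was the highest for the summed immune cell markers (979.0 CPM) and for LOC103388033 (851.3 CPM). Large pituitary replicate 3 was the highest for lhb (27590 CPM).

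Of 145 named genes, 3 passed edgeR's test of a size class difference in their height in pituitary over the mean of the other 4 tissues. Of all 18585 genes tested, 105 (0.565%) passed. The log2 differences of the 3, large minus small females, were -2.40 for esr1, -1.85 for LOC103389235 and -2.82 for scn1lab. In fits that left out 1 library, esr1 passed in 29 of 30 and LOC103389235 in 21 of 30. The difference of scn1lab fell to -1.41 without large liver replicate 2, and its pituitary values overlapped between the size classes.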

How the results depend on the processing

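In 46 other settings none of the 48 genes named as hormones or for their level, rise or fall changed direction. These 48 leave out the genes named only as list members. The split against muscle, 4683 higher and 5833 lower, turned to more genes higher in fits of the 12 libraries of 2 tissues (4824 and 3887), in large females only (5660 and 4579), with DESeq2 (5391 and 5031), with median-of-ratios scaling (5416 and 5021) and on FPKM. In all, 477 counts stayed within 1.5 times, while 53 moved by more. Of the values of these 48 genes, 2049 stayed on their side of 2-fold. A further 14, all of genes lowest in pituitary, fell short of it. In fits of 2 tissues, 197 genes were lowest. In large females only, 222 were lowest. With glmTreat at 2-fold, 1493 were higher and 2877 lower than brain, 537 highest and 173 lowest. On log2(FPKM + 1), 11513 were higher and 946 lower than liver, 9733 higher and 1534 lower than muscle, and 21 lowest. Without a filter the counts were 11511, 953, 9733, 1531 and 21. On log2(FPKM + 0.1) they were 14069, 1181, 11925, 2278 and 94, with 1291 highest. With no fold minimum, 4446 were higher than brain, 1368 highest and 711 lowest. At 10-fold, 504 were higher and 952 lower than brain, 2544 and 1096 than liver, 3881 and 2159 than gonad, and 1888 and 2070 than muscle, with 197 highest and 29 lowest. DESeq2 gave 220 and 301 for size class.

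Leaving out 1 library, the counts higher and lower were 2406 to 2831 and 4143 to 4575 against brain, 5318 to 5502 and 3457 to 3661 against liver, 7748 to 7969 and 5789 to 5997 against gonad, and 4661 to 5813 and 4791 to 6085 against muscle. Between 800 and 932 genes were highest, 348 to 473 lowest, and 14 to 59 higher and 33 to 135 lower by size class.

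Replicate numbers were not taken to pair the libraries in the main fit, and the labels do not say whether same-numbered libraries came from the same fish. Over all tissues, deviations of same-numbered libraries correlated at a median of 0.0142 (-0.0774 to 0.3221), against -0.00595 for other numbers. That median cannot decide on pairing, since the nearly alike groups had little spread to compare. In large females the pituitary and liver libraries of each number did correlate, at 0.1453, 0.3221 and 0.1767, each best with its own number. However, pituitary replicate 1 with liver replicate 3 gave 0.1314, and pituitary replicate 3 with liver replicate 1 gave 0.1251. Unlike pairs with replicate 2 gave -0.1723 to -0.2619. Replicate 2 thus stood apart from 1 and 3 in both tissues, so these values cannot decide on pairing either. Large pituitary with brain gave 0.1379, 0.127 and 0.0593, while small pituitary and liver gave 0.0016 to 0.0171. With the replicate block, 5422 genes were higher and 3469 lower than liver, 2442 and 4323 than brain, 821 genes were highest and 391 lowest, and 27 were higher and 63 lower by size class. With the nearly alike libraries of small pituitary, small muscle and large gonad summed within each group, 830 were highest and 302 lowest. Depth limited genes of few counts, whose folds are bounds or carry wide intervals.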

Other observations

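Groups of genes known from sense organs were found among those highest in pituitary, and the groups below were chosen after their values were seen, so that their counts are a description beside the 4.39% of all genes tested. Many matched genes had too few counts to be tested, and a gene that is high in pituitary passes that filter, so that counts over tested members overstate the share. Of 44 matched and 34 tested genes whose names point to the hair bundle of the inner ear, 19 were highest in pituitary and 20 without large pituitary replicate 2, with median log2 fold changes of 2.69 against brain, 5.06 against liver, 4.60 against gonad and 4.17 against muscle. Of the 34, 22 were higher and 2 lower than in brain, and 29 and 1 than in liver. Against gonad 24 were higher and 4 lower, and against muscle 25 and 3. Those lower included cdh23 against brain (log2 fold change -1.01) and dfnb31 against gonad (-3.12). The lipoxygenase homology gene loxhd1b had 7.96 to 20.5 CPM in pituitary, against at most 0.234 CPM elsewhere. Clarin 1, clrn1, varied little, with 11.1 to 13.0 CPM in pituitary, against at most 1.19 CPM elsewhere. Of 56 phototransduction genes matched, 18 were tested and 8 were highest. Of the 18, 12 were higher and 4 lower than in brain, 10 and 4 than in liver, 9 and 7 than in gonad, and 9 and 5 than in muscle. Cone transducin, gnat2, had 27.1 to 33.95 CPM in large and 92.6 to 95.4 CPM in small pituitary libraries, against at most 0.525 CPM elsewhere, and cone arrestin, arr3, had 22.9 to 55.1 CPM in pituitary, against at most 1.61 CPM elsewhere. Rhodopsin, LOC103385506, was not among the 8, with 0.0727 to 0.728 CPM in pituitary. Nor was arr3a, a second entry similar to cone arrestin, which averaged 0.115 CPM in pituitary, against 8.495 CPM in liver. The green-sensitive opsin-like LOC103385782 was not among them either, at 0.143 CPM in pituitary, against 0.418 CPM in brain.

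Of 14 prostaglandin receptor genes matched, 11 were tested and 4 were highest in pituitary, among them ptger3, with 10.97, 17.5 and 29.3 CPM as lowest, median and highest value, against at most 1.86 CPM elsewhere. Of 26 nicotinic acetylcholine receptor subunits matched, 18 were tested and 5 were highest, led by chrnb4 at 30.3 to 47.8 CPM in pituitary, against at most 7.16 CPM elsewhere. Of 25 lens crystallin genes matched, 7 were tested and 4 were highest, among them cryba2 at 8.36 to 12.2 CPM in pituitary, against at most 0.266 CPM elsewhere. Other members went the other way. Against brain, 5 prostaglandin receptors were higher and 2 lower, 6 nicotinic subunits higher and 6 lower, and 4 crystallins higher and 1 lower. Of all genes tested, 13.1% were higher and 23.6% lower. The nicotinic median against brain was -0.28, and the crystallin cryab was at -7.94.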
